A study of Micractinium conductrix and Chlorella sorokiniana with 12 samples.

Results

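The 100 genes described here were the most abundant transcripts of the green alga Micractinium conductrix whose level was similar at both growth pH values. They were taken from a table of 9349 genes as those with the highest mean FPKM over 6 libraries, among genes whose mean at pH 5.7 and mean at pH 7.6 differed by less than 2-fold. FPKM are fragment counts scaled to transcript length and library size, so levels can be compared between genes. The mean level and the pH contrast chose the members, so both are given as descriptions without a test. The transcripts came from strain SAG 241.80, an endosymbiont of the ciliate Paramecium bursaria. The 3 libraries at pH 5.7 carry the numbers 2, 4 and 57 and the 3 libraries at pH 7.6 the numbers 1, 3 and 76, and all came from whole cells grown in the modified freshwater SAG medium. A single strain was used, and the labels do not tell separate cultures from repeated libraries, so the spread between them may be technical. A second table held 9587 genes of the free-living alga Chlorella sorokiniana, strain UTEX 1602. It was grown in a modified freshwater medium at the same pH values, with 3 libraries each.

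Symbiotic Chlorella-type algae are known to release maltose to their host, more so in acidic medium, and the study compared growth pH with that trait in view. In green algae the most abundant polyadenylated transcripts commonly encode light-harvesting proteins, the small subunit of Rubisco, ribosomal proteins and other parts of the photosynthetic and translation machinery. Chloroplast transcripts mostly lack long poly(A) tails, so selection on oligo(dT) depletes them. The files identify each gene only by a running number and pair it with no name, product, position or sequence, and none of these functions is assigned to a member here.

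Library medians were between 27.2 and 28.1 FPKM, while library totals ran between 722751 and 858576 FPKM. Read totals were not used here, but steps between the lowest values put the depth of libraries 2, 4 and 57 at 0.758, 0.511 and 1.66 times that of library 1, and the depth of libraries 3 and 76 at 0.953 and 2.04 times. These are rough estimates. The ratio used was shared by 31 of 171 low genes in library 2, 19 of 131 in library 4 and 19 of 217 in library 57. It was shared by 24 of 163 in library 3 and 17 of 202 in library 76. It also depends on the scaling between libraries, which was not given. Of the genes in the table, 8500 had a mean of at least 1 FPKM and entered the tests, and all 100 members were among them. The median member averaged 2581 FPKM, against 32.2 FPKM for the median of all genes tested. The least abundant value of any member in any library was 451 FPKM.

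The 100 genes held 36.6%, 33.8% and 37.3% of all FPKM in libraries 2, 4 and 57 at pH 5.7, and 39.6%, 34.7% and 36.9% in libraries 1, 3 and 76 at pH 7.6. The mean was 35.9% ± 1.84 at pH 5.7 and 37.1% ± 2.43 at pH 7.6 (SD, n = 3 each), and the ranges of both groups overlapped. FPKM are relative amounts in a pool of cells, so fewer cells with a transcript and less of it per cell cannot be told apart. The 10 most abundant genes alone held 11.9%, 9.50% and 9.79% at pH 5.7, against 10.96%, 8.03% and 7.72% at pH 7.6. Here libraries 3 and 76 were lowest and libraries 2 and 1 highest. Between libraries 57 and 76 and libraries 1 to 4, the share of the 100 genes averaged 37.1% against 36.2%, and that of the first 10 averaged 8.75% against 10.1%. These shares rest on the levels that chose the members and were not tested.

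**Figure D1:**
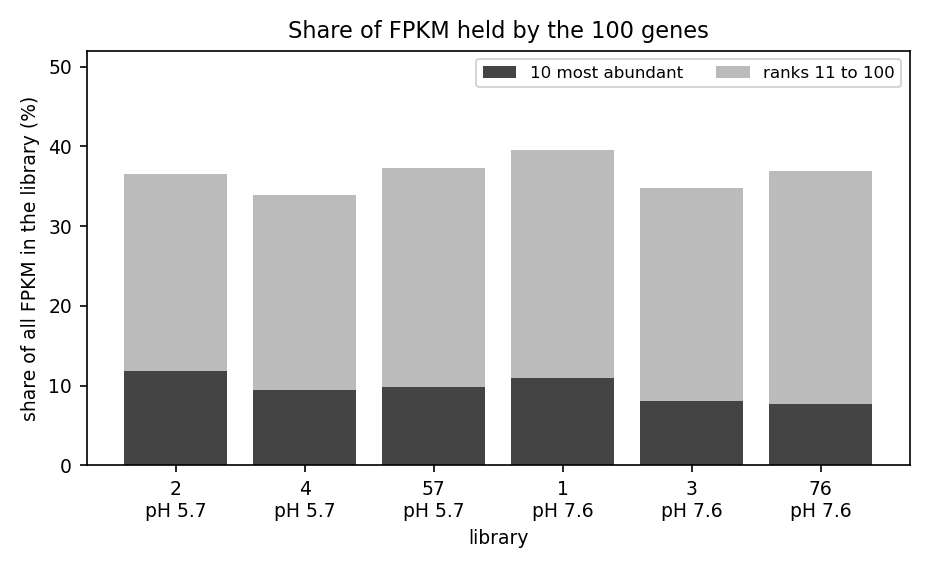
Share of all FPKM in each library (percent, vertical axis) held by the 10 most abundant genes (dark) and by those of ranks 11 to 100 (light), 1 bar per library. The whole bars lie between 33.8% and 39.6% and those of both pH groups overlap.

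Most members were among the leading genes of every library, as the choice by mean level favours. Between 88 and 96 of the 100 members were among the 100 most abundant genes of a library, with 93, 94 and 96 in libraries 2, 4 and 57, against 93, 88 and 91 in libraries 1, 3 and 76. Of the 10 leading members, 8, 9 and 10 were among the 10 most abundant genes of libraries 2, 4 and 57, against 9, 7 and 7 in libraries 1, 3 and 76. Gene g2094 ranked first in every library. At pH 5.7 its libraries 2, 4 and 57 gave 21147, 14777 and 19222 FPKM, against 20157, 11697 and 11738 FPKM at pH 7.6 for libraries 1, 3 and 76. This single gene held 2.66%, 2.04% and 2.29% of all FPKM at pH 5.7, against 2.35%, 1.52% and 1.43% at pH 7.6. Its values overlapped between the pH groups, with library 1 inside the range of the pH 5.7 libraries.

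The genes of ranks 2 to 6 averaged between 6050.2 and 10159 FPKM. The second, g6878, had 14200, 10375 and 9624 FPKM at pH 5.7 (libraries 2, 4 and 57) and 13103, 7438 and 6214 FPKM at pH 7.6 (libraries 1, 3 and 76). Gene g5977 had 11503, 9062 and 9856 FPKM at pH 5.7, against 12206, 8614 and 8425 FPKM at pH 7.6. Gene g7709 had 10250.3, 7377 and 7175 FPKM at pH 5.7, against 9185, 6733 and 6682 FPKM at pH 7.6. In all 3 genes libraries 2 and 1 were the highest, and the pH groups overlapped. Gene g1299 had 9782, 5054 and 8057 FPKM at pH 5.7, against 7735, 3825 and 4761 FPKM at pH 7.6, and here libraries 3, 4 and 76 were the low ones. Gene g7040 had 6753, 5369.7 and 7119.7 FPKM at pH 5.7, against 6807, 4763 and 5488 FPKM at pH 7.6. Neighbours in this order were not always separated by more than their spread, since g6878 and g5977 exchanged places in libraries 57, 3 and 76.

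**Figure D2:**
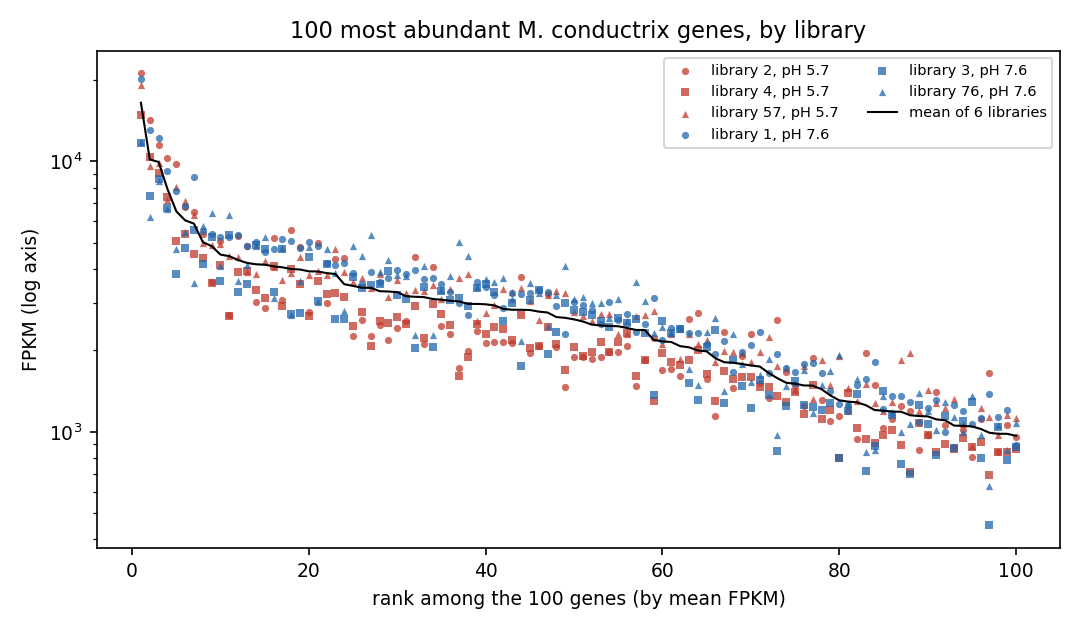
FPKM (vertical axis, log scale) of the 100 genes in order of their mean (horizontal axis, rank), 1 symbol per library, with pH 5.7 in red, pH 7.6 in blue and the mean of the 6 libraries as a line. Gene g2094 leads in every library, and the mean falls to 966 FPKM at the last rank.

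At the lower end of the list, g48 was the last gene inside it, with a mean of 966 FPKM, and g7863 the first below it, with 955 FPKM. The limit on the pH difference left out 4 genes that were more abundant than g48, all of them lower at pH 5.7. The member nearest that limit was g4569, at 2709, 2675 and 4475 FPKM at pH 5.7, against 5249, 5324 and 6325 FPKM at pH 7.6, or 1.71-fold higher at pH 7.6. The nearest gene left out, g7425, was 2.55-fold higher at pH 7.6, at 497, 468 and 909.6 FPKM against 1381, 1816 and 1584 FPKM. Values of g4569 and of g7425 did not overlap between the pH groups, although the rule takes the first and not the second.

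Within the 2-fold limit, 61 members had a lower and 39 a higher mean log2 level at pH 5.7, while 51.4% of all genes tested were higher. The members' median difference of pH 5.7 minus pH 7.6 was -0.17 on the log2(FPKM + 1) scale, and that of all genes tested was 0.01. With libraries scaled to equal totals these medians were -0.11 and 0.06. The members held 33.8% to 39.6% of the library totals, so this scaling is not independent of them. The rule limited these differences, so the members were not tested for them. Over all genes tested, 1.12% were called for pH at a Benjamini-Hochberg adjusted p under 0.05 (limma). The pairs 2 and 1, 4 and 3, and 57 and 76 were inferred from the numbers in the library names, as the labels state no pairing. With these pairs as a replicate block 10.4% were called, 411 higher and 472 lower at pH 5.7. With libraries scaled to equal totals the block called 624 higher and 467 lower.

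With FPKM as deposited, the pH difference of the members was unlike in the 3 pairs. It had a median of -0.37 in library 2 minus library 1, with 75 members lower at pH 5.7. In library 4 minus library 3 the median was -0.15 and 62 members were lower, and in library 57 minus library 76 the median was -0.01 and 51 were lower. The medians of all genes tested were 0.03, 0.02 and -0.01 in these pairs, and 45.9%, 48.0% and 50.9% of them were lower at pH 5.7. In the same direction in all 3 pairs were 70 members, 48 of them lower and 22 higher at pH 5.7, while 30 were mixed. This count was not made over all genes tested, so whether it is unusual cannot be said. The difference itself, the pH contrast in libraries 57 and 76 minus that in libraries 1 to 4, was positive in 93 of the 100 members, with a median of 0.26, against 47.5% of all genes tested and a median of -0.02. No member and no other gene passed the test of this difference (limma interaction term, 0% of 8500 genes called at an adjusted p under 0.05; an unadjusted p under 0.05 was reached by 282 genes and by 0 members). Its model held no pair term, so the difference between libraries 3 and 4 and libraries 1 and 2 entered its error. In g2154 its SE was 1.26, against 0.17 for that pair difference with the replicate block. The lack of calls therefore cannot show that the pairs had the same pH difference. This interaction test was added after the values were seen. Library totals were 794104 and 858576 FPKM in libraries 2 and 1, 722751 and 767679 in 4 and 3, and 840500 and 818890 in 57 and 76. Equal totals would thus raise library 2 against 1 and 4 against 3, and lower 57 against 76. The pair values and the difference between them were not recomputed with that scaling.

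**Figure D3:**
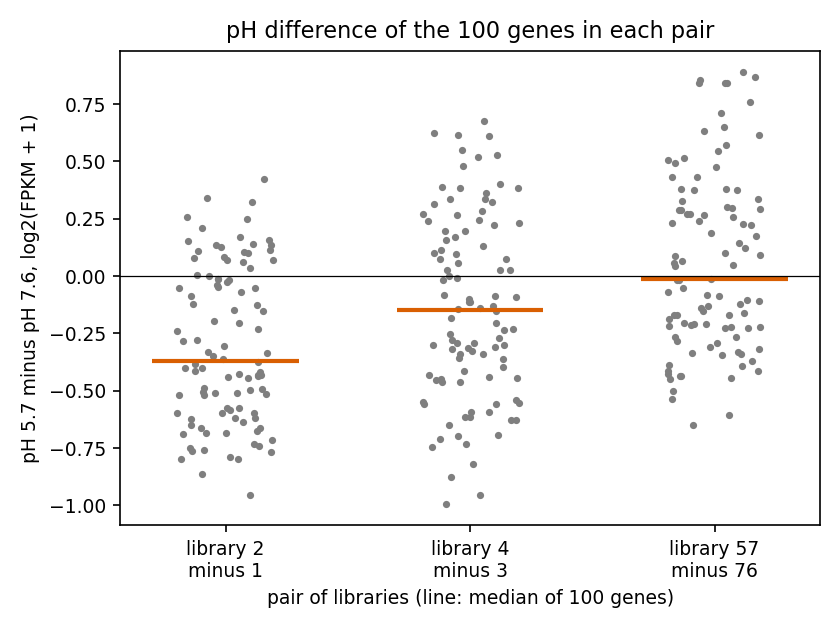
Difference of pH 5.7 minus pH 7.6 on the log2(FPKM + 1) scale (vertical axis) for each of the 100 genes in each pair of libraries, with the median as an orange line. The medians lie at -0.37, -0.15 and -0.01.

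The spread between libraries of the same pH was not used by the rule. The members' SD on the log2(FPKM + 1) scale within pH groups had a median of 0.25, and so did that of all genes tested. With equal totals the medians were 0.21 and 0.27. The members are a large part of those totals, so this scaling can narrow their spread and widen that of other genes. The medians with equal totals therefore cannot show that members varied less. With the pairs as a replicate block the residual SD had a median of 0.14 for the members and 0.13 for all genes tested. The narrowest member was g3125, with 2355, 2507 and 2569 FPKM at pH 5.7, against 3566, 3403 and 3423 FPKM at pH 7.6, an SD of 0.05 within pH groups. Its pH groups stood apart, each in a narrow band. The widest was g2154, with 1655, 693 and 1137 FPKM at pH 5.7, against 1386, 451 and 629 FPKM at pH 7.6, an SD of 0.74. Libraries 2 and 1 were the highest of their pH group in g2154 and libraries 4 and 3 the lowest.

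That ordering of the pairs split the list. Libraries 3 and 4 minus libraries 1 and 2, each pair balanced over pH, gave a median difference of -0.10 on the log2 scale over the members, against -0.01 over all genes tested. The values fell into a low and a high group, with 42 members below -0.3, 1 between -0.3 and -0.2, and 57 above that. Over all 8500 genes tested the same ranges held 1237, 697 and 6566 genes. The limit of -0.3 was chosen after these values were seen, and the groups are described without a test. Of the 42 members lower in libraries 3 and 4, 36 were higher at pH 5.7, with a median pH difference of 0.22. Of the other 58 members, 55 were lower at pH 5.7, with a median of -0.36. Among the 10 most abundant genes, 9 belonged to the first group (g2094, g6878, g5977, g7709, g1299 and g7040 among them), or 5 of the 10 with libraries scaled to equal totals, where 4 more lay within 0.1 above the limit.

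**Figure D4:**
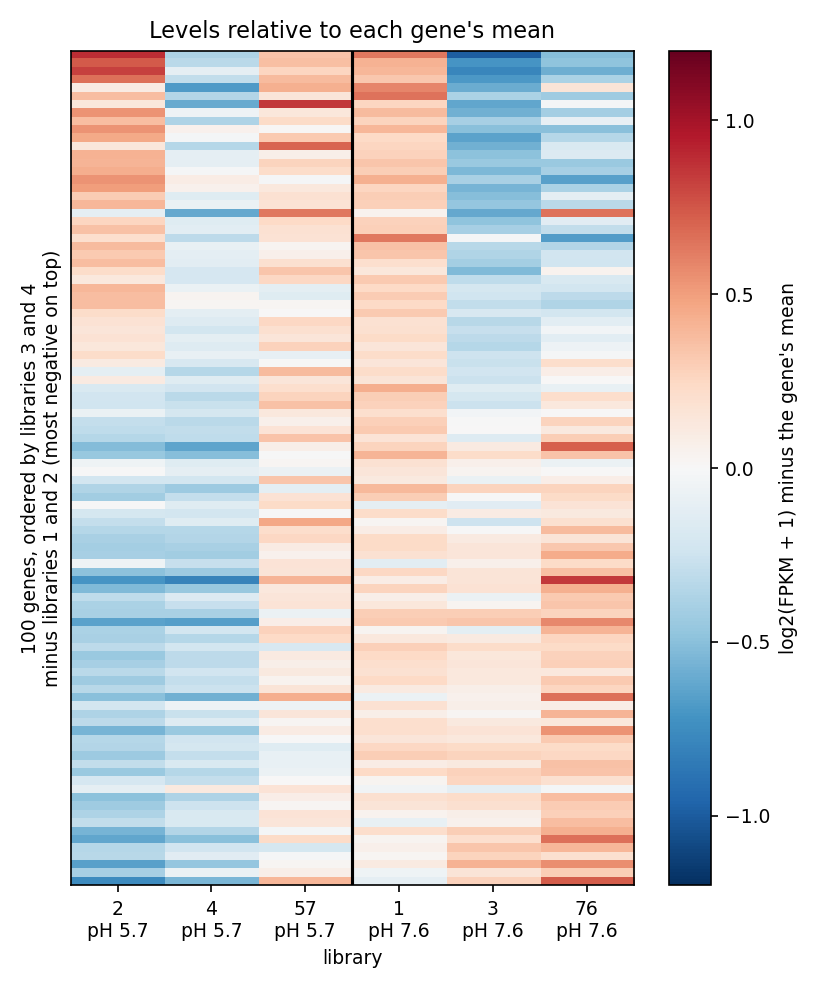
Level of each of the 100 genes (rows, ordered by libraries 3 and 4 minus libraries 1 and 2) in each library (columns, pH 5.7 left of the line and pH 7.6 right of it), as log2(FPKM + 1) minus the gene's mean over 6 libraries, red above and blue below it. In the upper rows libraries 2 and 1 are red and library 3 is blue, and in the lower rows libraries 2 and 4 are blue and library 76 is red.

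As shares of the library, the 42 genes held 22.9%, 18.1% and 19.1% of all FPKM in libraries 2, 4 and 57 at pH 5.7, against 20.8%, 14.4% and 14.7% in libraries 1, 3 and 76 at pH 7.6. In each pair the pH 5.7 library had the larger share. The other 58 genes held 13.7%, 15.7% and 18.2% at pH 5.7, against 18.8%, 20.4% and 22.2% at pH 7.6, and in each pair the pH 5.7 library had the smaller share. The share of the whole list was the sum of these 2 parts. They were split after the values were seen, on a contrast that went with the pH difference across the members. Their opposite pH shares restate that split and are no separate result.

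Across the 100 members, the difference of libraries 3 and 4 minus 1 and 2 and the difference of pH 5.7 minus pH 7.6 had a Spearman correlation of -0.82 and a Pearson correlation of -0.85. Over all 8500 genes tested the values were -0.42 and -0.39. These are correlations across genes, which are not independent replicates, and both axes come from the same 6 libraries, so they are given without a p-value. Scaling the libraries to equal totals moved the median of libraries 3 and 4 minus 1 and 2 over all genes to 0.14. With that scaling the median of the members was 0.04, below the median of all genes, and 29 members lay below -0.3, of which 27 were higher at pH 5.7. The scaling shifts all members by nearly the same amount, so the unchanged limit cuts the list at another place. The Spearman correlation of the members stayed at -0.82.

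**Figure D5:**
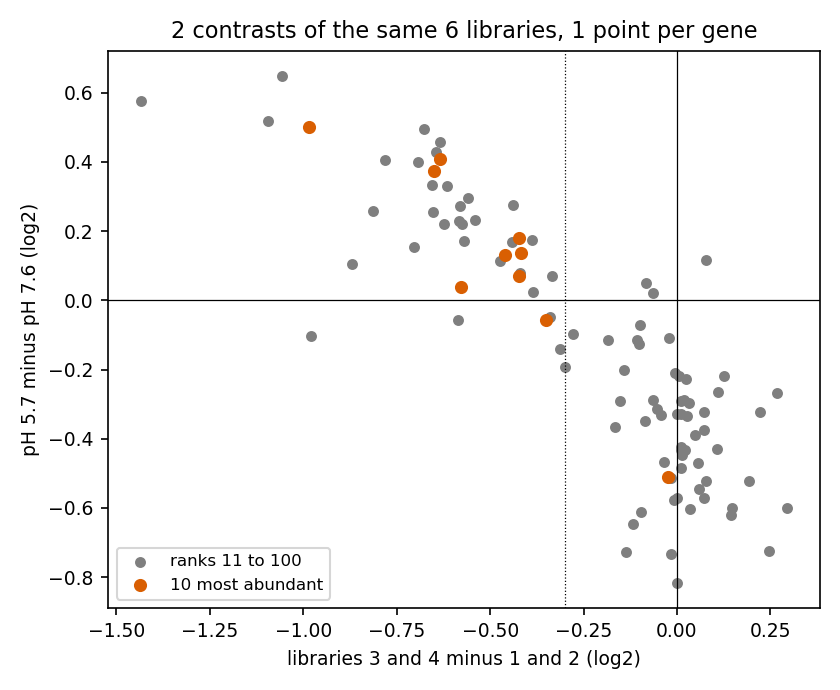
Each of the 100 genes by libraries 3 and 4 minus libraries 1 and 2 (horizontal axis) and pH 5.7 minus pH 7.6 (vertical axis), both as differences of mean log2(FPKM + 1), with the 10 most abundant genes in orange and the limit of -0.3 dotted. Left of that limit 36 of 42 genes lie above 0 on the vertical axis, and right of it 55 of 58 lie below 0.

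In the test across all genes the difference between libraries 3 and 4 and libraries 1 and 2 was called for 0% of them, members included (limma with the replicate block over 8500 genes). Unadjusted p-values under 0.05 were found for 34 members, all lower in libraries 3 and 4, and for 1774 genes in all, 859 higher and 915 lower. This contrast was added after the values were seen. The F test of any difference between the 3 pairs (limma, pH in the model) called 11 members, where 19.0% of all genes tested were called, and no test compared the share of members with that of all genes. Among the 11 were g1299 (limma adjusted p = 0.045) and g2154 (limma adjusted p = 0.0279). The F test and the contrast of libraries 3 and 4 with 1 and 2 set differences between pairs against the spread within pairs. The libraries of a pair deviated together, so the p-values of both can be too small. No gene was called by this F test when the mean-variance trend or the filter on low values was left out, or when library 57 or 76 was left out. Without library 1, 2, 3 or 4 it called 1, 4, 0 and 0 members among 134, 961, 164 and 144 genes.

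The names of libraries 57 and 76 follow another style than those of libraries 1 to 4. With pH in the model, 3 members were higher in libraries 57 and 76 than in libraries 1 to 4 (5.40% of all genes tested were called higher) and 0 were lower (4.93% of all genes called lower; at an unadjusted p under 0.05, 18 members were higher and 0 lower, and over all genes 1320 were higher and 1419 lower). Over the list, 75 members were higher and 25 lower in libraries 57 and 76, with a median log2 difference of 0.17, against -0.01 over all genes tested. With equal totals, 67 were higher and 33 lower, with a median of 0.09 against -0.09 over all genes.

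Gene g1521 reached 3712 FPKM in library 57 and 5048 FPKM in library 76, against 1718, 1609, 2988 and 3119.6 FPKM in libraries 2, 4, 1 and 3 (log2 difference 0.94, SE 0.16; limma adjusted p = 0.0327). Gene g8697 reached 3828 FPKM in library 57 and 4483 FPKM in library 76, against 1993, 1893, 2702 and 2928 FPKM in libraries 2, 4, 1 and 3 (log2 difference 0.83, SE 0.15; limma adjusted p = 0.0357). Both genes exceeded every library from 1 to 4 in libraries 57 and 76. The difference of g9083 was larger, at 0.97, and missed the threshold (limma adjusted p = 0.0607). It passed with the pairs as a replicate block (limma adjusted p = 0.0129), and it is named after its values were seen. That fit takes its error from within the pairs. The difference of -0.59 between libraries 3 and 4 and libraries 1 and 2 in g9083 therefore does not enter its error. No member passed as lower. The lowest were g6878, with a log2 difference of -0.50 (SE 0.31; limma adjusted p = 0.316), and g8350, with -0.38 (SE 0.37; limma adjusted p = 0.526). Gene g8350 had 6355 FPKM in library 57 and 3547 FPKM in library 76, against 6495, 4559, 8750.2 and 5584 FPKM in libraries 2, 4, 1 and 3, so that libraries 57 and 76 did not move together.

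With the pairs as a replicate block, 7 members were higher in libraries 57 and 76 (11.4% of all genes called higher) and 0 lower (11.1% of all genes called lower; 24 and 2 members at an unadjusted p under 0.05, and 1688 and 1757 of all genes). With the block and equal totals the calls over all genes were 735 higher and 1211 lower, of which 10 and 3 were members. Calls without the block were lost for the members when any of libraries 2, 3, 4, 57 or 76 was left out, and 3 members were called without library 1. Because the libraries of a pair deviated together, treating 57 and 76 as independent can make these p-values too small. The replicate block does not mend this, as it sets a difference between pairs against the spread within pairs. Its p-values for libraries 57 and 76 can be too small as well, and its larger number of calls adds no certainty. Libraries 57 and 76 were also the deepest by the estimate from low values, and the part of depth in these differences was not tested.

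Some members carried neighbouring numbers, which the rule did not use. There were 3 pairs of members with consecutive numbers and 3 more whose numbers differed by 2, and whether the numbers follow genome order is not stated. These genes were picked out after their values were seen. Genes g5462 and g5463 had a ratio of their FPKM between 1.38 and 1.49 in all 6 libraries, and g3833 and g3834 one between 0.845 and 0.97. Genes g1299 and g1300 varied more, with a ratio between 2.05 and 4.41. Of the pairs whose numbers differed by 2, g1574 and g1576 had a ratio between 0.719 and 0.898. Genes g2152 and g2154 had one between 0.914 and 3.45, and g4575 and g4577 one between 0.678 and 2.09. The number of such pairs to be expected and the ratios of other members were not worked out, so no coordination of neighbours can be read from these values. FPKM cannot show whether reads were shared between such genes.

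The same rule applied to C. sorokiniana gave 100 genes that held 29.1%, 32.3% and 41.3% of all FPKM in its libraries 2, 4 and 57 at pH 5.7, against 25.5%, 30.6% and 52.1% in libraries 1, 3 and 76 at pH 7.6. Between 58 and 78 of them were among the 100 most abundant genes of a library, against 88 to 96 in M. conductrix. Their leading gene ranked between 2 and 18 in its libraries. The number of more abundant genes that the pH limit left out there was not counted. The lowest value of a member was 1.08 FPKM, in library 57. Library 76 had a total of 1664100 FPKM, against 766511 to 1074960 in the others. The counts thus do not compare the stability of the 2 species. Genes are not matched between the tables, which were scaled separately, and the lists were chosen by level, so these values are given side by side without a test, and species, strain and medium cannot be told apart.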

How the data were processed

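Polyadenylated RNA of M. conductrix was measured in 6 libraries, 3 per pH. The values are FPKM as deposited, 1 column per library. Per the submitters' processing notes, the tools included Trimmomatic, HISAT2 and Cuffnorm. Their versions, the genome build, the gene models, the strand setting and the scaling between libraries were not given in the sources used here. FPKM are not counts, so the 8500 genes averaging 1 FPKM or more were fitted as log2(FPKM + 1) in limma 3.58.1 under R 4.3.3 (eBayes with a mean-variance trend, 2-sided, Benjamini-Hochberg adjustment over all of them, threshold 0.05). The pseudocount shrinks fold changes of low genes, while every member was at 451 FPKM or more. Relative depth was read from the commonest ratio of values under 0.3 FPKM to those of library 1, and no counting interval could be computed. Fits were run on simulated data with independent noise, in which the libraries of a pair did not vary together. That run cannot show their error rates in these data. Deviations from the pH mean correlated across genes by 0.60, 0.66 and 0.59 within the pairs 1 and 2, 3 and 4, and 57 and 76. The pairing was inferred from the library names and is not stated in the labels. It is used as a block where this changed a call. The members and tests were chosen with earlier results of these data known. Named genes are the 6 most abundant members, those at the limits of the rule, the 2 with the largest positive difference among members called in libraries 57 and 76, the 2 with the lowest (none was called), and those of widest and narrowest spread. Alternatives changed the pseudocount, the filter, the scaling, the trend, the pairing, the rule and the libraries.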

Additional observations from a re-analysis of the deposited data

How the results depend on the processing

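Without a filter on low values, 38 genes were called for pH, 545 for libraries 57 and 76 against 1 to 4 (0 members higher), and 0 between the pairs (0 members). Without a mean-variance trend and without a pH term, 0 genes and 0 members were called between the pairs. At a mean of at least 5 FPKM, 5 members were higher in libraries 57 and 76 (1016 genes called in all) and 17 differed between the pairs (1811 genes). With equal totals 21 members differed between the pairs (1814 genes). With the replicate block, 883 genes were called for pH, 1910 genes and 7 higher members for libraries 57 and 76, and the median SD was 0.14 for members and 0.13 for all genes. Their cause was not tested.

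Leaving out 1 library gave 14 to 81 genes for pH; 0 to 1224 genes, 0 to 3 higher and 0 to 0 lower members for libraries 57 and 76; and 0 to 961 genes and 0 to 4 members between the pairs. It also gave median SDs of 0.20 to 0.28 for members and 0.22 to 0.26 for all genes, and shares of 34.9% to 37.0% at pH 5.7 and 35.9% to 38.2% at pH 7.6. The difference of g8350 ranged between -0.98 without library 57 and 0.22 without library 76, opposite in sign. Genes g1521 and g8697 passed in 9 of 15 alternatives each (limma adjusted p between 0.018 and 0.22, and between 0.0196 and 0.231) and kept their direction in all of them.

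The list itself shared 92 genes with that of a 1.5-fold limit, 97 without a limit, 99 when ranked by median, 100 with equal totals and 98 to 100 when 1 library was left out. A 1.5-fold limit gave a share of 34.2% at pH 7.6, 50 members gave 26.1% at pH 5.7 and 26.8% at pH 7.6, and 200 members 44.0% and 45.0%. Absolute depth is unknown.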
